A study of Caenorhabditis elegans with 6 samples.

Results

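The transcripts described here encode the large molecular chaperones of Caenorhabditis elegans: hsp-1, hsp-70, hsp-90 (formerly daf-21) and hsp-110 in the cytosol, hsp-3 and hsp-4 in the endoplasmic reticulum (ER), and hsp-6, hsp-60 and hsp-75 in the mitochondria. They were chosen by gene name. The 9 genes were measured by 10 probes, out of 17922 named genes and 22490 worm probes on the array, and only hsp-75 had more than 1 probe. Whole worms of the wild type strain N2, fed Escherichia coli OP50, were grown from eggs for 72 h at 16 °C on nematode growth medium that held either diazinon (DZN) dissolved in acetone or acetone alone. DZN is an organophosphorus insecticide that inhibits acetylcholinesterase, the enzyme that ends the signal of the neurotransmitter acetylcholine. The dose cannot be given with certainty: it is 1 mg/ml in the names of the samples but 0.5 mg/ml in their protocol, and the study's methods use mg per litre. The stage was L3/L4 in the sample labels and L3 in the protocol. Each sample pooled the worms of 4 dishes, and the 6 DZN samples were biological replicates, each hybridised with a control sample on a two-colour array. On 3 arrays the DZN-treated worms carried the dye Cy5 (DZN-Cy5 replicates 1 to 3), and on the other 3 arrays they carried Cy3 (DZN-Cy3 replicates 1 to 3).

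Chaperones bind unfolded or partly folded proteins and release them under the control of ATP. Hsp70 proteins hold short exposed stretches of a client, Hsp90 proteins act later on clients that are nearly folded, and chaperonins enclose a whole client in a chamber. Each compartment has its own set, and each set has its own stress response. Heat shock factor HSF-1 drives cytosolic chaperones, the ER unfolded protein response acts through IRE-1 and XBP-1, and the mitochondrial unfolded protein response acts through ATFS-1. In C. elegans the genes hsp-4, hsp-6 and hsp-60 are widely used as reporters of the ER and mitochondrial responses.

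The 10 chaperone probes were above background on 12 of 12 channels, while the share of all worm probes above it ranged from 49.7% to 81.4% per channel. The shares were highest on DZN-Cy3 replicates 1 and 2, between 72.3% and 81.4%. Markers of body wall muscle, intestine, hypodermis, neurons and germline were all measured, and limma called none of them, while rank products called the cuticle collagen col-19 lower. The 6 vitellogenins, yolk proteins made by the adult intestine, had mean log2 levels of 9.41 to 13.06 in control worms that the labels place at a larval stage. All 6 had lower means in DZN-treated worms, with a median log2 ratio of -1.64. Rank products called 6 of them lower, while limma called 0 (adjusted p from 0.224 to 0.622). Of all probes, rank products called 1.17% and limma 0.0178% in either direction. On DZN-Cy3 replicate 3 only 1 of the 6 was lower, and the median was 1.12. Since whole worms were measured, fewer cells of a type and less RNA per cell cannot be told apart.

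None of the 9 chaperone genes passed the test between DZN-treated and control worms. limma called 0 of the 10 probes at an adjusted p under 0.05, against 4 of all 22490 probes, or 0.0178%. Rank products, the test used by the study, also called 0 of the 10 at a percentage of false positives (PFP) under 0.05, against 1.17% of all probes. At an unadjusted p under 0.05 in limma 1 of the 9 genes, hsp-70, was past the threshold, which is 11.1% of them against 10.9% of all probes. The ratio changed sign among the arrays for 10 of the 10 probes, as it did for most probes: only 5.17% of all probes kept one sign on 6 of 6 arrays. The fitted mean was below 0, that is lower in DZN-treated worms, for 8 of the 9 genes (88.9%), against 49.2% of all probes and 58.3% of the 2812 probes with a mean log2 level of 12 or more. The measured hsp-1 ratio, -0.04, is among these 8 although its probe was saturated, as described below. That of hsp-90, saturated on DZN-Cy3 replicates 1 and 3, is also among them. The median over the 9 genes was -0.16 on the log2 scale. It was 0.0034 when DZN-Cy5 replicate 2 was left out, -0.06 when DZN-Cy3 replicate 3 was, -0.29 when DZN-Cy5 replicate 3 was, and -0.05 with median centring. A fit without an array gives the average of the mean ratios of both dye orientations, which differs from the plain mean of the arrays left. That count of 8 became 5 with median centring in place of loess, 4 when DZN-Cy5 replicate 2 was left out and 5 when DZN-Cy3 replicate 3 was. It was 9 when DZN-Cy5 replicate 3 was left out, and also when DZN-Cy3 replicate 1 was.

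**Figure D1:**
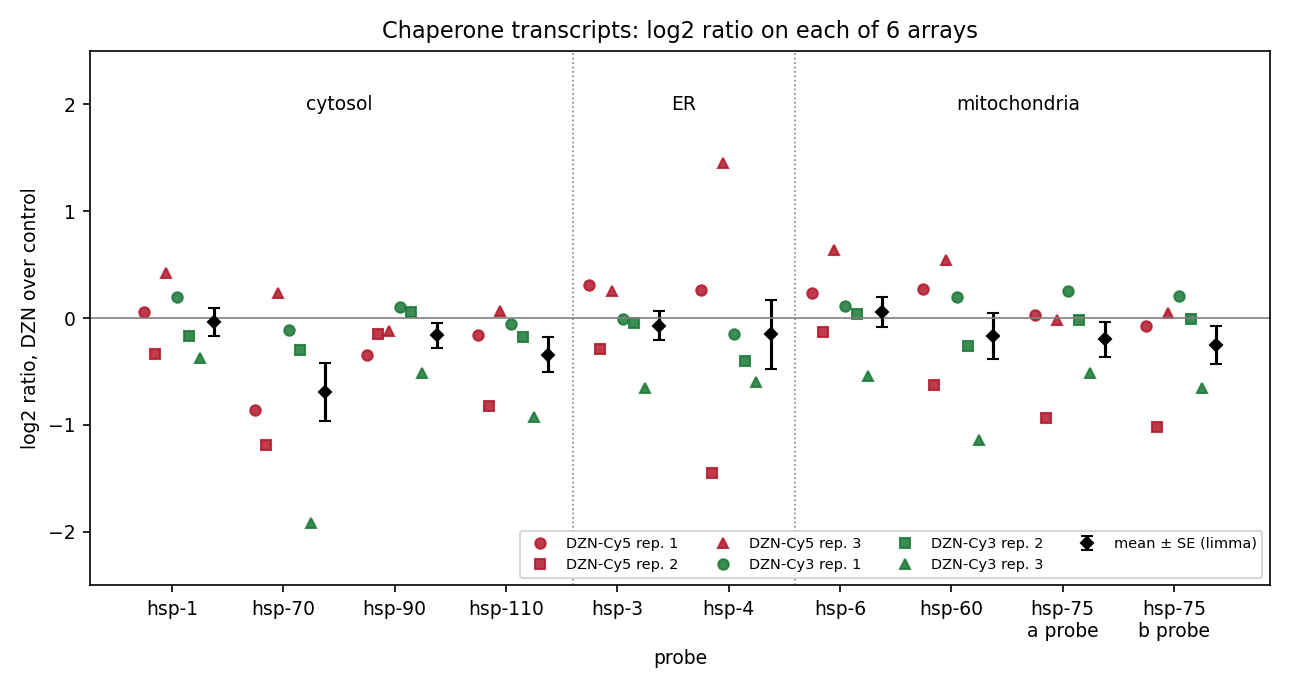
The log2 ratio of DZN over control (y axis) for the 10 probes of the 9 chaperone genes (x axis, grouped by compartment), with 1 coloured point per array and a black diamond for the limma mean with its SE. The points of 10 of 10 probes lie on both sides of 0, and hsp-70 has the lowest mean, -0.69.

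Among the cytosolic genes, hsp-70 (C12C8.1) is a heat-inducible Hsp70, which is little expressed in unstressed worms. Its log2 level in control worms was 8.63, 9.93 and 7.96 on DZN-Cy5 replicates 1, 2 and 3, and 7.73, 7.88 and 9.74 on DZN-Cy3 replicates 1, 2 and 3; all lists of 6 values below follow this order. In DZN-treated worms it was 7.77, 8.74, 8.20, 7.62, 7.57 and 7.82. The normalized control level was high on DZN-Cy5 replicate 2 and DZN-Cy3 replicate 3, while the DZN levels spanned a narrower range, which lay inside that of the controls except for 2 DZN samples just below it. Before normalization, the control intensity in Cy5 was 1356 on DZN-Cy3 replicate 3, against 687 and 573 on DZN-Cy3 replicates 1 and 2. In Cy3 it was 290 on DZN-Cy5 replicate 2, below the 355 of DZN-Cy5 replicate 1, where the normalized level was 8.63. Intensities of different dyes are not compared here. The part of the normalization in the control level of DZN-Cy5 replicate 2 was not tested. The log2 ratios were -0.86, -1.19, 0.23, -0.12, -0.30 and -1.92. The mean was -0.69 ± 0.28 (SE, n = 6), or 1.62-fold lower, with an unadjusted p of 0.0378 and an adjusted p of 0.437 in limma. Its 95% confidence interval ran from -1.33 to -0.05, a fold of 0.397 to 0.965, and its PFP in rank products was 0.0902. The ratio was below 0 on 5 of 6 arrays, and the 2 lowest ratios came from the 2 arrays with the highest normalized control levels. The value fitted without DZN-Cy3 replicate 3 was -0.41 (adjusted p = 0.587 in limma). Before normalization the 3 DZN-Cy5 spots were dim, with control intensities of 355, 290 and 227 and DZN intensities of 258, 277 and 300. They carried quality code 4, whose meaning is not given. The fitted ratio was -0.54 without background correction and -0.89 with plain background subtraction.

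The constitutive cytosolic Hsp70, hsp-1 (F26D10.3), folds newly made proteins in unstressed cells. Its ratios were 0.06, -0.33, 0.42, 0.19, -0.17 and -0.38, 3 above and 3 below 0. The mean was -0.04 ± 0.13 (adjusted p = 0.945 in limma), with a fold between 0.787 and 1.21 by the 95% confidence interval. The probe was at the upper end of the scanner range: between 50% and 50.7% of its Cy5 pixels were saturated on 6 of 6 arrays, against at most 3% in Cy3. A saturated channel gives only a lower bound on the level, and here it was the DZN channel on the DZN-Cy5 arrays and the control channel on the DZN-Cy3 arrays. The measured ratios of hsp-1 and their interval therefore do not bound its change.

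The only cytosolic Hsp90 of the worm, hsp-90 (C47E8.5), brings kinases and receptors to their mature form, and its mutants, named daf-21, are altered in dauer formation. Control levels were 14.97, 15.25, 14.85, 14.81, 14.51 and 15.22, and DZN levels were 14.63, 15.10, 14.73, 14.91, 14.57 and 14.71. Levels of both treatments overlapped, and 4 of 6 ratios were below 0, from 0.10 on DZN-Cy3 replicate 1 to -0.51 on DZN-Cy3 replicate 3. The mean ratio was -0.16 ± 0.12 (adjusted p = 0.650 in limma), with a fold of 0.741 to 1.08 by the 95% confidence interval. Cy5 pixels were saturated on DZN-Cy3 replicates 1 and 3, by 48.4% and 50.8%, where Cy5 was the control channel. The ratios of these arrays are therefore upper bounds, and the sign on DZN-Cy3 replicate 1 is not settled. The interval given here thus does not bound the change of hsp-90. With both spots left out the fitted value was -0.07, from 3 DZN-Cy5 arrays and 1 DZN-Cy3 array with equal weight on each orientation.

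As a nucleotide exchange factor, hsp-110 (C30C11.4) frees Hsp70 from its clients and works with it in dissolving aggregates. Its control levels were 13.88, 13.81, 13.48, 13.70, 13.98 and 14.17, and the DZN levels were 13.72, 12.99, 13.55, 13.64, 13.80 and 13.25. The lowest DZN samples, on DZN-Cy5 replicate 2 and DZN-Cy3 replicate 3, lay below the whole control range, and the other 4 lay within it. The ratios were -0.16, -0.82, 0.07, -0.05, -0.18 and -0.92, with a mean of -0.34 ± 0.16 (unadjusted p = 0.0717 and adjusted p = 0.506 in limma). The fitted value was -0.21 when either of those arrays was left out.

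**Figure D2:**
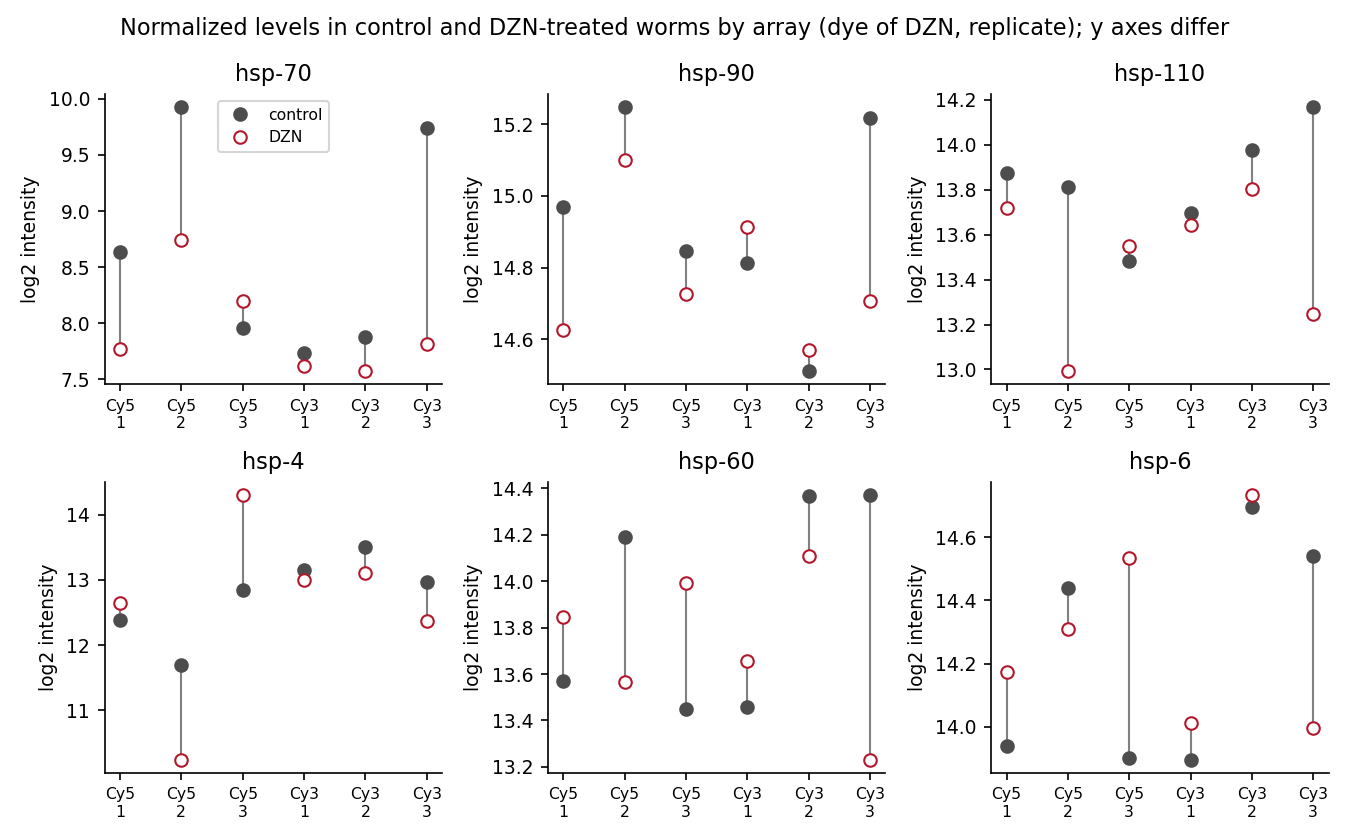
Normalized log2 intensity (y axis, a different range in each panel) of hsp-70, hsp-90, hsp-110, hsp-4, hsp-60 and hsp-6 on each of 6 arrays (x axis, dye of the DZN sample and replicate number), with filled points for control worms, open points for DZN-treated worms and a line joining the pair of one array. For hsp-70 the tall lines of DZN-Cy5 replicate 2 and DZN-Cy3 replicate 3 start from control levels of 9.93 and 9.74.

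In the ER the worm has 2 BiP proteins, the Hsp70s of that compartment. The constitutive one, hsp-3 (C15H9.6), had ratios of 0.31, -0.29, 0.25, -0.01, -0.04 and -0.65. Their mean was -0.07 ± 0.14 (adjusted p = 0.875 in limma), with a fold of 0.763 to 1.18 by the 95% confidence interval. The other, hsp-4 (F43E2.8), is the one that the ER unfolded protein response induces. Its control levels were 12.38, 11.69, 12.85, 13.14, 13.51 and 12.97, and the DZN levels were 12.64, 10.24, 14.30, 12.99, 13.10 and 12.37. The DZN samples held both the lowest and the highest level of the 12, on DZN-Cy5 replicates 2 and 3. The ratios were 0.26, -1.45, 1.45, -0.15, -0.40 and -0.60, so the arrays with the extreme values had opposite signs and nearly the same size. The mean was -0.15 ± 0.32 (adjusted p = 0.896 in limma), and the 95% confidence interval allowed a fold from 0.536 to 1.52. Before normalization the hsp-4 spot of DZN-Cy5 replicate 2 was dim, with intensities of 707 in control and 725 in DZN. The other DZN-Cy5 arrays, with the same dyes, had at least 2542 in controls and 5763 in DZN samples. The value fitted without DZN-Cy5 replicate 2 was 0.23.

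Of the mitochondrial genes, hsp-6 (C37H5.8) is the matrix Hsp70, which also pulls precursor proteins through the import pore. Its ratios were 0.23, -0.13, 0.63, 0.12, 0.04 and -0.54, with a mean of 0.06 ± 0.14 (adjusted p = 0.910 in limma) and a fold of 0.828 to 1.31 by the 95% confidence interval. This was the only one of the 9 genes with a mean above 0, and the value fitted without DZN-Cy5 replicate 3 was -0.04. The matrix chaperonin hsp-60 (Y22D7AL.5) had control levels of 13.57, 14.19, 13.45, 13.46, 14.37 and 14.37, and DZN levels of 13.84, 13.57, 13.99, 13.66, 14.11 and 13.23. The levels of both treatments overlapped, with the lowest DZN level beside one of the highest control levels on DZN-Cy3 replicate 3. The ratios were 0.27, -0.62, 0.54, 0.20, -0.26 and -1.14, and their mean was -0.17 ± 0.21 (adjusted p = 0.799 in limma).

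The mitochondrial Hsp90, hsp-75 (R151.7), the worm counterpart of human TRAP1, was read by 2 probes named for different transcripts of the gene. The brighter probe, R151.7b, had ratios of -0.07, -1.02, 0.04, 0.20, -0.01 and -0.65 and a mean of -0.25 ± 0.18 (adjusted p = 0.637 in limma). The dimmer probe, R151.7a, had ratios of 0.03, -0.93, -0.02, 0.26, -0.02 and -0.52 and a mean of -0.20 ± 0.17 (adjusted p = 0.690). Both probes were lowest on DZN-Cy5 replicate 2 and next lowest on DZN-Cy3 replicate 3. The values fitted without DZN-Cy5 replicate 2 were -0.08 for R151.7b and -0.04 for R151.7a.

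Read by array, the 9 genes moved together on some arrays and not on others. On DZN-Cy5 replicate 2 all 9 measured ratios were below 0, with a median of -0.62. The same held on DZN-Cy3 replicate 3, with a median of -0.65. The counts and medians by array include hsp-1. Its Cy5 saturation leaves its sign unsettled on DZN-Cy5 replicate 2 and DZN-Cy3 replicate 1. On DZN-Cy5 replicate 3 only hsp-90 was below 0, and the median was 0.25. On DZN-Cy5 replicate 1 and DZN-Cy3 replicate 1 the signs were mixed, 4 below and 5 above 0, with medians of 0.06 and 0.10, and on DZN-Cy3 replicate 2 there were 7 below 0 and a median of -0.17. Over all probes the medians of the 6 arrays lay between -0.01 and 0.01, and between 49.2% and 51.8% of probes were below 0. The loess step itself sets these medians near 0. Among the 2812 probes with a mean log2 level of 12 or more, the median was -0.08 on DZN-Cy5 replicate 2, with 55.5% below 0. On DZN-Cy3 replicate 3 it was -0.03, with 51.7% below 0.

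The medians of the 3 compartments shared a sign on 4 arrays. Those of the cytosol include the measured ratios of hsp-1, whose Cy5 spots were saturated. They also include hsp-90, saturated in Cy5 on DZN-Cy3 replicates 1 and 3. On DZN-Cy5 replicate 2 the medians were -0.58 for the 4 cytosolic genes, -0.87 for the 2 ER genes and -0.62 for the 3 mitochondrial genes. On DZN-Cy3 replicate 3 they were -0.72, -0.63 and -0.65. The signs were also shared on DZN-Cy5 replicate 3, at 0.15, 0.85 and 0.54, and on DZN-Cy3 replicate 2, at -0.17, -0.22 and -0.01. On DZN-Cy5 replicate 1 the cytosolic median was -0.25 while those of the ER and the mitochondria were 0.28 and 0.23.

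**Figure D3:**
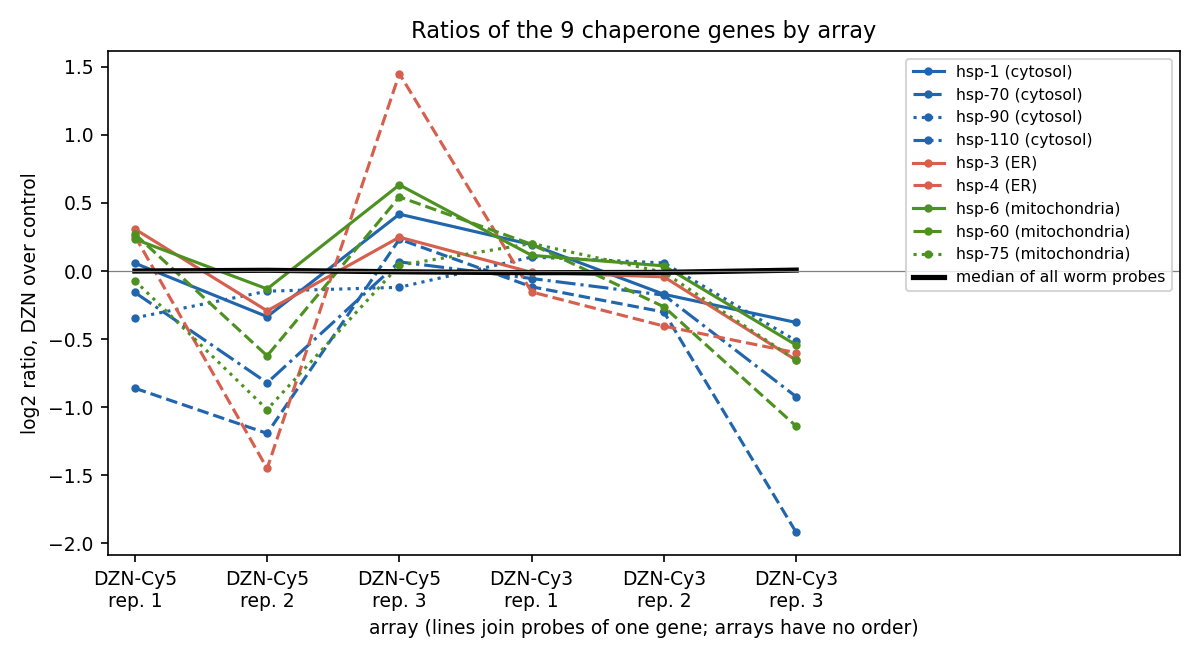
The log2 ratio of DZN over control (y axis) on each of 6 arrays (x axis, in no order), with 1 line per chaperone gene coloured by compartment and a thick black line for the median of all worm probes. The 9 ratios lie below 0 on DZN-Cy5 replicate 2 and DZN-Cy3 replicate 3, where the median of all probes, set near 0 by loess, stays within 0.01 of 0. Those of hsp-1 come from spots saturated in Cy5, so its sign on DZN-Cy5 replicate 2 is not settled.

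DZN-Cy5 replicate 2 and DZN-Cy3 replicate 3 differed in dye orientation, in replicate number and in the Cy5 photomultiplier setting, which was 48 on the former and 50 on the latter. They shared a Cy3 setting of 50 with the other DZN-Cy5 arrays, while DZN-Cy3 replicates 1 and 2 had 55. The vitellogenins did not follow the same order: their median log2 ratio was -3.24, -0.53, -0.26, -4.17, -2.79 and 1.12, so the 2 arrays with low chaperone ratios were not those with the lowest vitellogenin ratios. Germline markers had medians of -0.04, 0.16, 0.95, -0.48, -0.32 and -0.23, and muscle markers stayed between -0.10 and 0.14. Neuronal markers had medians of 0.02, 0.11, -0.50, 0.07, 0.07 and 0.09, with 6 of 6 below 0 on DZN-Cy5 replicate 3, and markers of hypodermis and cuticle had 0.28, -0.03, 0.38, -0.07, -0.45 and -0.24. The part of worm stage or array quality in the ratios of these 2 arrays was not tested.

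The dye orientation was tested as a term of the same fit. limma called it for 0 of the 10 chaperone probes (adjusted p from 0.609 to 0.936) and for 0% of all probes. The difference between orientations was 0.47 for both hsp-4 and hsp-60, 0.38 for hsp-6 and 0.32 for hsp-3, with the arrays of DZN in Cy5 higher. With median centring in place of loess it was called for hsp-1, hsp-3 and hsp-6 (differences of 1.77, 1.73 and 1.73, adjusted p = 0.0463 each), when 6.20% of all probes were called.

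The design allowed pairs of related genes to be compared within each array. For the inducible hsp-70 against the constitutive hsp-1, the measured differences in log2 ratio were -0.92, -0.86, -0.18, -0.31, -0.13 and -1.54. Since hsp-1 was saturated in Cy5 on 6 of 6 arrays, the sign of these differences is not settled on the DZN-Cy3 arrays, and no test of them is given. Both other pairs were tested by exact two-sided sign-flip permutation, with p-values adjusted over 3 pairs, and neither passed. With 6 arrays the smallest possible p of this permutation was 0.03125. A pair alone at that floor could not pass after the adjustment. Of the BiP genes, hsp-4 minus hsp-3 was -0.05, -1.16, 1.20, -0.14, -0.36 and 0.05, with a mean of -0.08 ± 0.31 (exact permutation p = 0.6875, adjusted 0.6875). In the mitochondria hsp-6 exceeded hsp-60 on 4 of 6 arrays, by a mean of 0.23 ± 0.11 (exact permutation p = 0.156, adjusted 0.234).

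The ratios of hsp-6 and hsp-60 varied together over the 6 arrays, in the same rank order (Pearson r = 0.957, exact permutation p = 0.00139, adjusted 0.00833; Spearman rho = 1, p = 0.00278, adjusted 0.0167). All adjusted values here cover 6 relations, and 3 of these were chosen after the values had been seen. The other 3, hsp-6 and hsp-60 among them, were chosen with earlier results of these data known. Leaving out the 2 arrays farthest from the median of hsp-6 left r at 0.960. In each relation these arrays were chosen by 1 gene only. The ER pair hsp-4 and hsp-3 gave r = 0.698 (exact permutation p = 0.126, adjusted 0.190) and rho = 0.886 (p = 0.0333, adjusted 0.05). Without the 2 arrays farthest from the median of hsp-4, DZN-Cy5 replicates 2 and 3, r was 0.898 for the ER pair. The lowest ratio of hsp-3, -0.65 on DZN-Cy3 replicate 3, was kept. The 2 relations with hsp-1, those to hsp-70 and hsp-90, are not given because of its saturated spots.

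The gene next to hsp-60 in the genome table, Y22D7AL.10, encodes the counterpart of Hsp10, the lid of the mitochondrial chaperonin. Its ratios were 0.03, -0.69, 0.72, 0.32, -0.04 and -0.56, with a mean of -0.04 ± 0.20 (adjusted p = 0.963 in limma). They gave r = 0.898 with those of hsp-60 (exact permutation p = 0.0181, adjusted 0.0542) and rho = 0.886 (p = 0.0333, adjusted 0.05). Without the 2 arrays farthest from the median of hsp-60, r was 0.807. This relation was among those chosen after the values had been seen. So was that of hsp-90 and hsp-110, with r = 0.595 (exact permutation p = 0.183, adjusted 0.22) and rho = 0.6 (p = 0.242, adjusted 0.242). Without the 2 arrays farthest from the median of hsp-90, r was 0.0367. On those 2 arrays hsp-90 was saturated in Cy5. Within a dye orientation there were 3 arrays, too few for a correlation, and ratios of one array share its hybridisation and its normalization.

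**Figure D4:**
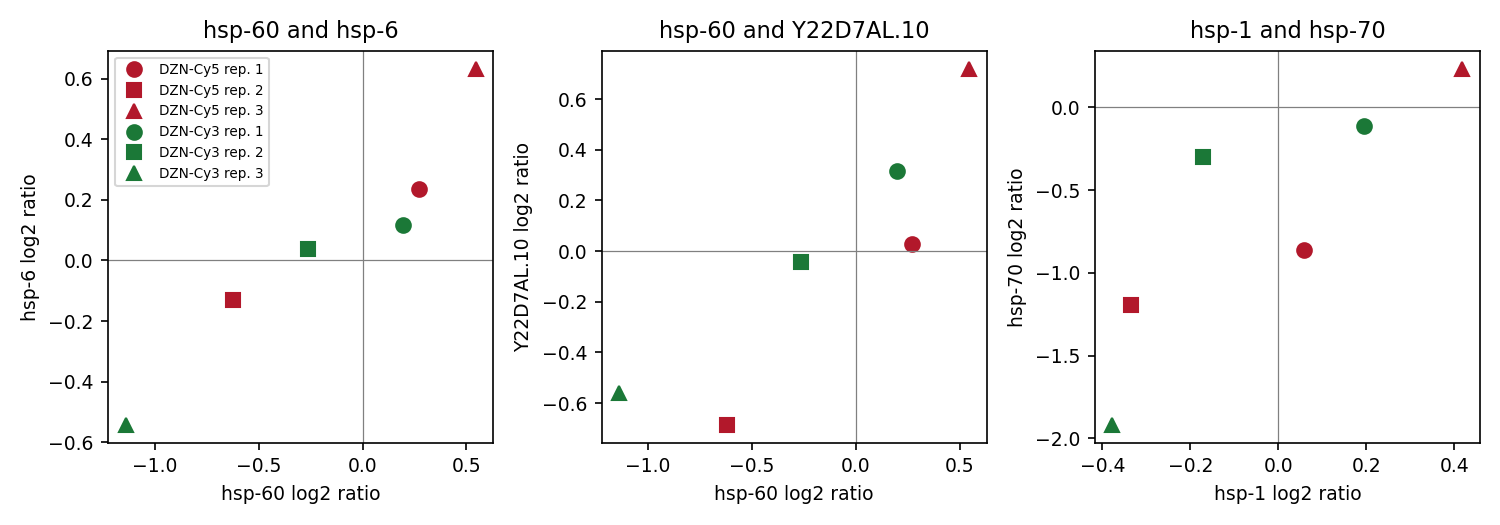
Log2 ratios of DZN over control of one gene against another on 6 arrays: hsp-6 (y axis) against hsp-60, Y22D7AL.10 against hsp-60, and hsp-70 against hsp-1, with red points for DZN in Cy5, green points for DZN in Cy3 and the shape giving the replicate. The points of hsp-60 and hsp-6 rise in one rank order (rho = 1), and the hsp-70 ratio is above 0 on 1 array, DZN-Cy5 replicate 3; the hsp-1 ratios come from spots saturated in Cy5.

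Over the whole array, the pattern of the 9 chaperones was shared by other transcripts. The mean of the 9 used here includes hsp-1, whose Cy5 spots were saturated, and hsp-90, saturated in Cy5 on DZN-Cy3 replicates 1 and 3. The genes with the closest ratios to the mean of the 9 over 6 arrays were Y55F3AM.13 (r = 0.998), rips-1 (r = 0.997) and mrps-22 (r = 0.997). Among the 9292 probes of other genes above background on 12 of 12 channels, 318 (3.42%) had an r above 0.9. For rips-1 the ratios were -0.24, -1.64, 0.69, 0.09, -0.52 and -2.11, and the mean was -0.62 (adjusted p = 0.556 in limma). None of these values carries a test, as the genes were taken for their likeness.

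Other genes of the folding pathways were counted from lists, and limma and rank products called 0 members of any of these lists in either direction. Over all probes limma called 0.0178% and rank products 1.17%, so 0 calls in lists of at most 17 genes is near those shares. A mean below 0 was seen for 49.2% of all probes and for 58.3% of those with a mean log2 level of 12 or more. Of the other Hsp70 superfamily genes 4 of 6 were measured, and F44E5.4 and F44E5.5 had no matched probe. Their median ratio was -0.16, and 3 of 4 were below 0. Lowest by p were stc-1, an Hsp70-like protein of the ER, at -0.36 ± 0.16 (adjusted p = 0.471) and the ER relative of Hsp110, T14G8.3, at -0.28 ± 0.22 (adjusted p = 0.663).

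All 16 genes listed as cytosolic co-chaperones, heat shock factor and its binding protein were measured, and 11 were below 0, with a median of -0.11. The lowest p was that of bag-1, a nucleotide exchange factor of Hsp70, at -0.40 ± 0.15 (adjusted p = 0.399), and it was the only member of this list with an unadjusted p under 0.05, which is 6.25% of the list against 10.9% of all probes. One of the 11, dnj-12, was above background on 0 of 12 channels. The activator of the Hsp90 ATPase, ahsa-1, was below 0 on 6 of 6 arrays, with ratios of -0.24, -2.33, -0.30, -0.10, -0.07 and -0.53 and a mean of -0.59 ± 0.27 (adjusted p = 0.484). One array, DZN-Cy5 replicate 2, thus held by far the lowest of its ratios. The transcription factor hsf-1 itself had a ratio of 0.08 ± 0.13 (adjusted p = 0.849).

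The CCT chaperonin, which folds actin and tubulin in the cytosol, was read by 7 of its 8 subunits, with a median of -0.01. The highest were cct-5 at 0.34 ± 0.23 (adjusted p = 0.626), with 1.81 on DZN-Cy5 replicate 3 and at most 0.32 on the other arrays, and cct-8 at 0.20 ± 0.14 (adjusted p = 0.641), while cct-4 was above background on 0 of 12 channels. Among the 17 genes of ER folding and its stress response the median was 0.02, and 7 were below 0. The membrane lectin chaperone cnx-1 had a mean ratio of -0.44 ± 0.25 (adjusted p = 0.562), with -1.90 on DZN-Cy5 replicate 3, and the ER Hsp90 enpl-1 had 0.16 ± 0.09 (adjusted p = 0.568).

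The list of mitochondrial folding, proteolysis and stress response held 14 genes. It counts lonp-2, at -0.17, whose place in mitochondria these data do not show. Of the 14 listed, 10 were below 0, with a median of -0.15. In limma 2 had an unadjusted p under 0.05, or 14.3% against 10.9% of all probes. These were dnj-10, the Hsp40 partner of the matrix Hsp70, at -0.45 ± 0.15 (adjusted p = 0.373), and ubl-5, a ubiquitin-like protein of the mitochondrial unfolded protein response, at -0.57 ± 0.22 (adjusted p = 0.436). The sign of both changed among the arrays: dnj-10 was above 0 on DZN-Cy3 replicates 1 and 2, at 0.29 and 0.10, and ubl-5 on DZN-Cy5 replicate 1, at 0.03.

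By array, the lists moved with the chaperones to different extents. On DZN-Cy3 replicate 3 the medians were -0.55 for the cytosolic co-chaperones, -0.35 for CCT, -0.45 for the ER list and -0.29 for the mitochondrial list, with 13 of 16, 4 of 7, 11 of 17 and 12 of 14 genes below 0. Of all probes, 49.5% were below 0 on DZN-Cy3 replicate 3. On DZN-Cy5 replicate 2 the medians of these lists were -0.16, -0.16, -0.04 and -0.52. On DZN-Cy5 replicate 3, the array with 8 of the 9 chaperones above 0, the medians were 0.22, 0.49, 0.19 and -0.17.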

How the data were processed

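Linear spot intensity values with local background were deposited by the authors without normalization, with the percent of saturated pixels and a quality score per spot, a code that the sources used here do not explain. A table of log2 ratios by the authors, used as an alternative, was close to a loess fit without background correction, already turned to DZN over control (r of at least 0.9997 on each array). No genome build was found in the sources used here, so no coordinates are printed.

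Spot means were background corrected (normexp, offset 50), normalized by loess and Aquantile in limma 3.58.1 (R 4.3.3), and the log2 ratio was fitted per probe with dye orientation as a term, with Benjamini-Hochberg adjustment over 22490 worm probes. The 742 control and empty spots were left out. Above background meant a foreground over the mean local background plus 2 SD. Values after ± are standard errors over 6 arrays, whose number limits the precision. Rank products (100 permutations, PFP under 0.05) were written from their definition. Levels are normalized log2 intensities per channel and were not compared between probes. The brightest probe stands for a gene.

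Names in the files were updated through the RefSeq table of WBcel235, which matched 21382 probes, 31 more came from the platform table, and 1077 matched none. On 6 of 6 arrays the header's dyes were those of the labels.

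The 9 genes, the gene lists and the 3 pairs were chosen with earlier results of these data known. From each list, the genes called by either test and the 2 of smallest limma p are named, with the 3 genes most like the mean of the 9; hsf-1 and Y22D7AL.10 were named after their values were seen. The scripts were tested on simulated data. Alternatives covered background, normalization, dim, saturated and coded spots, dye term, moderation, test, source table, replicate number and each array left out.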

Additional observations from a re-analysis of the deposited data

Results flagged for a closer look

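Over 6 arrays, 30 groups of values were checked for a sample that stands apart, 10 of ratios and 20 of levels against Dixon's critical value, which chance passes in about 1 of 20 groups. Ratios were past it in 0 groups and levels in 4. The control level of hsp-3 was 14.75 on DZN-Cy5 replicate 2, above the other 5 control samples, and its DZN level was 13.76 on DZN-Cy3 replicate 3, below the other 5 DZN samples. For the dimmer hsp-75 probe, R151.7a, the level was low on DZN-Cy5 replicate 2 in both channels, 9.83 in control and 8.89 in DZN. Before normalization this spot read 277 and 299, against at least 1473 in controls and 1643 in DZN samples on the other DZN-Cy5 arrays. The brighter hsp-75 probe read 1888 and 2707 on DZN-Cy5 replicate 2.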

How the results depend on the processing

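The count of 0 chaperone probes called was the same under all 24 alternatives. For all probes the 4 calls of limma became 2 without background correction, 0 under plain subtraction, 30 with median centring, 8 with scale normalization, 14 with probes above background on at least 6 of 12 channels, 16 with robust and trended moderation, 2 with the authors' table, 264 with rank products, 2 with the Cy5 photomultiplier setting as a block, an alternative chosen after seeing the data, and 0 to 132 with 1 array left out (132 without DZN-Cy3 replicate 3). The cause was not tested.

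Replicate numbers are shared by both orientations, but same-numbered arrays did not deviate together (r = 0.15, -0.01 and -0.08), so the numbers were not taken to pair samples. With the replicate block 0 probes were called, and no chaperone call changed. Scan day as a block was not run, as all arrays were scanned on 1 day.

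With median centring the ratios of hsp-1, hsp-90 and hsp-3 turned to 0.16, 0.011 and 0.094, and the dye term was called for 3 chaperone probes in place of 0. With 1 array left out the ratios ranged from -0.13 to 0.060 for hsp-1, -0.13 to 0.031 for hsp-3, -0.49 to 0.23 for hsp-4, -0.039 to 0.16 for hsp-6, -0.32 to 0.016 for hsp-60 and -0.33 to 0.14 for hsp-4 minus hsp-3. The ratios of hsp-70 (-0.90 to -0.41), hsp-110 (-0.44 to -0.21) and the hsp-75 probes R151.7b (-0.35 to -0.08) and R151.7a (-0.29 to -0.04) were below 0 under all alternatives run. Saturation limits hsp-1: with spots over 40% saturated left out, also chosen after seeing the data, it had no value. With spots of quality codes other than 3 left out, hsp-70 rested on the 3 DZN-Cy3 arrays, at -0.78 (adjusted p = 0.395).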

Other observations

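The small heat shock proteins of the hsp-16 family, which hold unfolded proteins without ATP and are induced by heat, were looked at after their values had been seen. The probe of hsp-16.41 (Y46H3A.2) had control levels of 12.83, 11.19, 9.63, 9.02, 10.25 and 12.62 and DZN levels of 11.80, 9.32, 8.62, 9.62, 9.99 and 9.92, in the order DZN-Cy5 replicates 1 to 3 and DZN-Cy3 replicates 1 to 3. Control worms thus spanned a wider range than DZN-treated worms, with the highest levels on DZN-Cy5 replicate 1 and DZN-Cy3 replicate 3. Its ratios were -1.04, -1.86, -1.01, 0.60, -0.27 and -2.70, with a mean of -1.05 ± 0.38. limma did not call it (adjusted p = 0.402), while rank products called it lower (PFP 0.01). The neighbouring hsp-16.2 (Y46H3A.3) had control levels of 9.35, 6.67, 7.41, 7.75, 8.02 and 9.60, also highest on these 2 arrays. On DZN-Cy3 replicate 3 its ratio was -2.20, against 0.03 on DZN-Cy5 replicate 2, and the mean of -0.52 ± 0.29 did not pass (adjusted p = 0.550). The hsp-16.2 and hsp-16.21 probes were above background on 9 of 12 channels and that of hsp-16.20 on 5, so their ratios rest in part on background. The probes of hsp-16.20 and hsp-16.21 gave 0.36 ± 0.35 (adjusted p = 0.729) and -0.33 ± 0.18 (adjusted p = 0.540). The hsp-16 genes are close in sequence, and how far their probes read each other's transcripts was not tested.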
